A study of Mus musculus with 11 samples.

Results

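The genes described here are 31 members of the hypoxia-inducible factor (HIF) pathway, taken by name from a fixed list and found in the count files of all 11 libraries. They are 9 regulators (Hif1a, Epas1, Hif3a, Arnt, Egln1, Egln2, Egln3, Hif1an and Vhl) and 22 targets, out of 55421 annotated genes. All 31 passed the filter on low counts. The study sequenced poly(A) RNA of knee articular cartilage, cut out by scalpel, from 14-week-old C57BL/6 mice, 4 weeks after an operation on 1 knee. The operation, destabilization of the medial meniscus (DMM), leads to osteoarthritis in mice. The groups were unoperated contralateral knees of c-FosWT mice (n = 4), operated knees of c-FosWT mice (n = 3) and operated knees of c-FosDCh mice (n = 4), whose label was read as loss of Fos in chondrocytes. Each c-FosWT operated knee had its contralateral knee among the 4, so these groups share 3 animals. The contralateral knees were not sham-operated and came from operated animals. The labels name neither the driver of the deletion nor the deleted part of Fos, and c-FosDCh contralateral knees were not analysed here.

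HIFs are transcription factors made of an oxygen-labile alpha subunit and the stable partner ARNT. When oxygen is present, prolyl hydroxylases of the EGLN family mark the alpha subunit, the VHL ubiquitin ligase takes it to the proteasome, and the asparaginyl hydroxylase encoded by Hif1an blocks its transactivation domain. When oxygen is low the alpha subunit accumulates and induces genes for oxygen supply, pH control, mitochondrial turnover and survival, and also some of its own hydroxylases as feedback. Cartilage has no blood vessels, and HIF-1 is needed for the survival of chondrocytes. HIF activity is set largely at the protein level, which RNA counts do not measure.

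Gene counts per library ranged from 13593454 to 18280558. The common biological coefficient of variation was 0.315. Values are given as CPM, read counts scaled to a common library size after TMM normalization. Fos was at 17.1, 24.8, 22 and 15.7 CPM in the contralateral knees, at 12.1, 14.1 and 9.01 CPM in the c-FosWT DMM knees and at 19.4, 10.9, 29.5 and 33.0 CPM in the c-FosDCh DMM knees. The libraries labelled c-FosDCh thus had no lower Fos than the operated c-FosWT ones (log2 difference 0.98 ± 0.35, edgeR adjusted p = 0.0736), and every difference below is between libraries so labelled. The chondrocyte genes Col2a1 and Acan were present in all libraries, as were markers of marrow, muscle, vessel and fat. The libraries of c-FosDCh DMM knees 3 and 4 stood apart from the other DMM knees, with the 2 lowest marrow scores of all 11 libraries, and results are given with and without them. In bulk RNA, fewer cells of a type and less RNA per cell cannot be told apart.

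Between the operated knees of both genotypes most of the hypoxia genes were higher in c-FosDCh. Of the 31 genes, 20 were higher and 1, Angptl4, was lower in c-FosDCh DMM than in c-FosWT DMM cartilage at an adjusted p under 0.05 (edgeR quasi-likelihood test, Benjamini-Hochberg adjustment over 18125 genes). Over all genes tested, 14.4% passed, 10.6% as higher and 3.79% as lower. The median log2 fold change of the 31 genes was 1.39, against -0.01 over all genes tested. The 9 regulators had a median of 0.39 with 4 of them higher, and the 22 targets had a median of 1.52 with 16 higher and 1 lower. The groups did not overlap for 22 genes with c-FosDCh above, where 17.2% of all genes did so, and for 1 gene, Bnip3l, with c-FosDCh below, where 15.8% did so. The calls were close to the threshold, with adjusted p between 0.0332 and 0.0431 for the 21 genes. None of the 31 passed when c-FosDCh DMM 3 or 4, c-FosWT DMM 2 or 3, or contralateral 1 or 2 was left out alone. In those fits 0% of all genes passed, or 0.00556% without contralateral 2, so the loss of calls was not particular to the 31. The sign of all 21 stayed the same in each of those fits. DESeq2 called 23 of the 31 higher and 1 lower, beside 16.4% and 13.3% of all genes.

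In the c-FosWT mice, operated knees against contralateral knees gave no call among the 31 genes, and 0 of 18125 genes (0%) passed in edgeR's quasi-likelihood test. At an unadjusted p under 0.05, 18 of the 31 had lower values in the operated knees and 0 had higher values, beside 12.7% lower and 7.19% higher over all genes. The median log2 fold change of the 31 was -0.86, against -0.01 over all genes, with -0.15 for the regulators and -1.0 for the targets. Fold changes were below 0 for 24 of the 31, beside 50.9% of all genes. For 17 genes every operated knee was below every contralateral knee, beside 13.1% of all genes. DESeq2 called 7 of the 31 lower (Adm, Bhlhe40, Bhlhe41, Car9, Mgarp, Bnip3 and Ankrd37), where it called 3.57% of 14894 genes lower.

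The c-FosDCh operated knees against the c-FosWT contralateral knees gave no call among the 31 genes and 0% over all genes with edgeR, and DESeq2 called 0 of the 31 and 0.227% of all genes. At an unadjusted p under 0.05, 7 of the 31 had higher and 2 had lower values, beside 4.65% and 3.7% over all genes. The median log2 fold change of the 31 was 0.29, against 0.00, and 26 of the 31 were above 0, beside 49.7% of all genes. The comparisons share libraries, so their values are not independent of each other. The 20 genes that were higher in c-FosDCh than in c-FosWT operated knees all had negative fold changes in c-FosWT operated against contralateral knees, and 19 had positive fold changes in c-FosDCh operated against contralateral knees, the exception being Adm. The choice of these 20 itself uses the c-FosWT and c-FosDCh operated libraries, so these counts are a description only. Without c-FosDCh 3 and 4, Mgarp for example was at -0.69 against contralateral knees in place of 0.77.

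**Figure D1:**
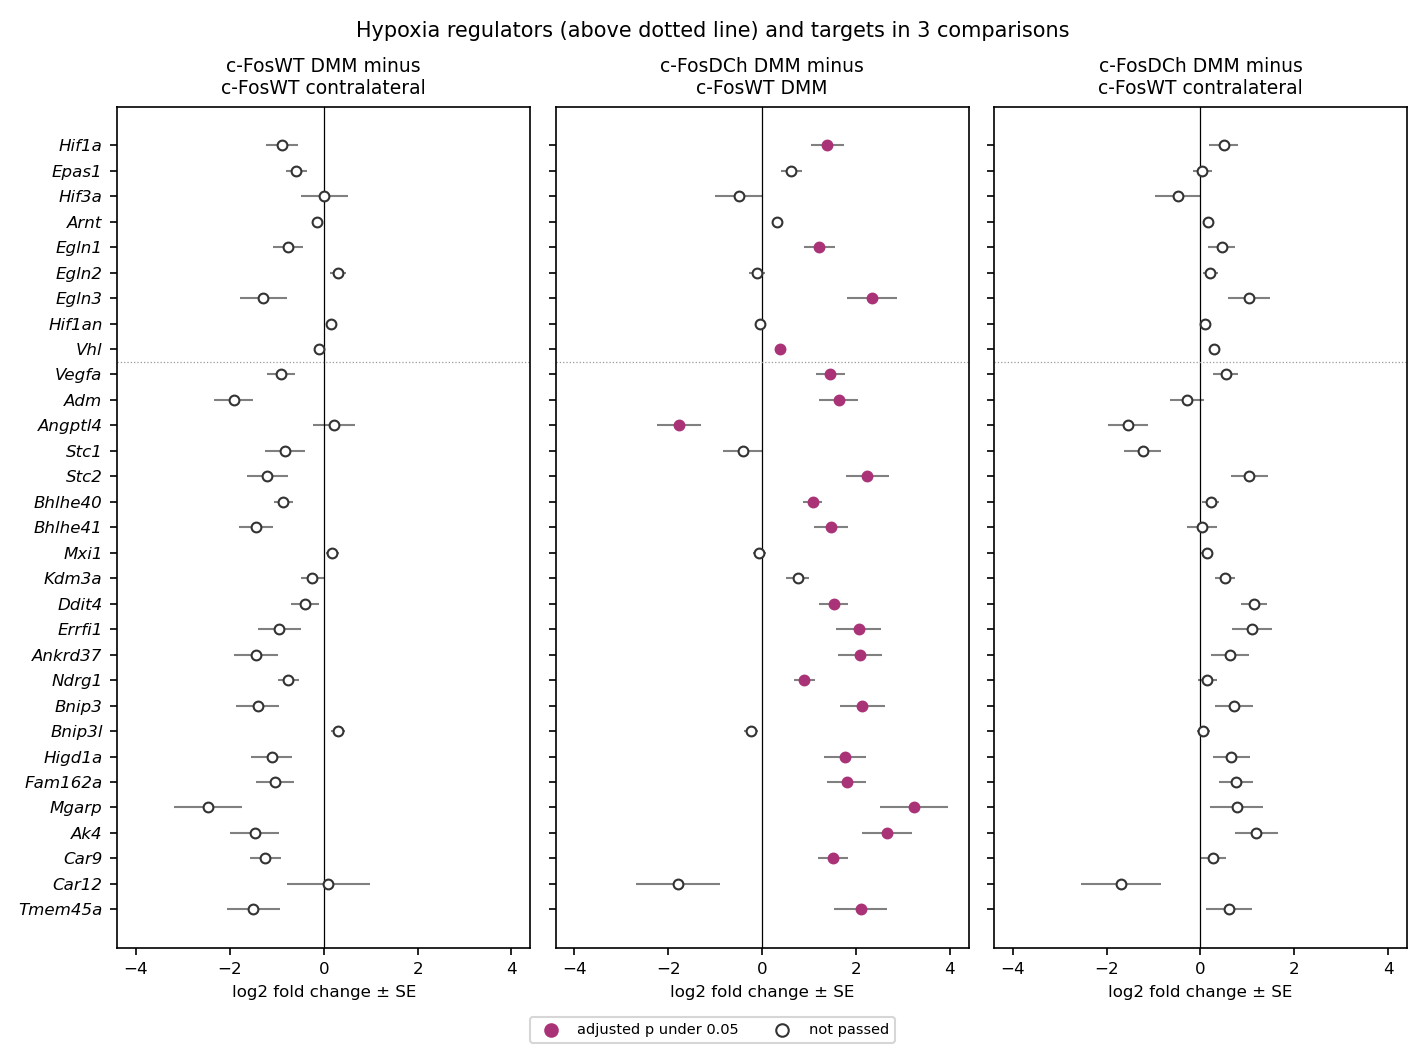
Log2 fold change with its standard error (x axis) for the 9 regulators (above the dotted line) and 22 targets (below) in the 3 comparisons, from 1 edgeR fit to 11 libraries. Filled points passed an adjusted p under 0.05. They occur only in the middle panel, c-FosDCh DMM minus c-FosWT DMM, with 20 to the right of 0 and Angptl4 to the left.

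Of the 4 HIF subunit genes only Hif1a passed. Hif1a encodes the oxygen-labile HIF-1alpha and lies at chr12:73901375-73947530 on the forward strand (GRCm38). It was at 307, 231, 221 and 213 CPM in the contralateral knees, at 185, 97.4 and 110 CPM in the c-FosWT DMM knees and at 212, 242, 370 and 549 CPM in the c-FosDCh DMM knees. The c-FosWT operated knees were below every library of the other groups, and c-FosDCh knees 3 and 4 were above every other library. The log2 fold change of c-FosDCh against c-FosWT DMM was 1.39 ± 0.35 (SE; edgeR adjusted p = 0.0364), and that of c-FosWT DMM against contralateral was -0.89 ± 0.34 (edgeR adjusted p = 0.206). Epas1, which encodes HIF-2alpha, was at 220, 247, 318 and 183 CPM in contralateral, 182, 155 and 148 CPM in c-FosWT DMM and 225, 189, 316 and 265 CPM in c-FosDCh DMM knees. Here too the c-FosWT operated knees were lowest, without overlap, but the difference of 0.62 ± 0.22 between the operated groups did not pass (edgeR adjusted p = 0.0691).

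Arnt encodes the constitutive partner subunit and varied little. It was at 91.6, 99.6, 96.3 and 90.1 CPM in contralateral, 92.6, 80.7 and 82.2 CPM in c-FosWT DMM and 92.1, 106, 115 and 113 CPM in c-FosDCh DMM knees. The operated groups overlapped, and their log2 difference of 0.32 ± 0.10 did not pass (edgeR adjusted p = 0.058). Hif3a, whose products include inhibitory isoforms, had the lowest level per kilobase of exon of all 31 genes in each group. It was at 1.07, 1.21, 2.09 and 1.33 CPM in contralateral, 1.05, 1.03 and 2.22 CPM in c-FosWT DMM and 1.02, 1.45, 1.31 and 0.238 CPM in c-FosDCh DMM knees. These are 3 to 40 reads per library, and no difference was detectable at this depth (-0.49 ± 0.51 between the operated groups, edgeR adjusted p = 0.473). Per kilobase of exon, the level of Hif1a divided by that of Epas1 was 1.32, 0.887, 0.659 and 1.10 in the contralateral, 0.964, 0.596 and 0.705 in the c-FosWT DMM and 0.893, 1.21, 1.11 and 1.96 in the c-FosDCh DMM libraries. The 3 groups overlapped in this ratio.

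Among the 5 genes that switch HIF off, the oxygen sensors Egln1 and Egln3 and the ligase component Vhl were higher in c-FosDCh operated knees, while Egln2 and Hif1an did not pass. Egln3, an oxygen sensor that is itself a HIF target, lies at chr12:54178981-54203860 on the reverse strand. It was at 34.3, 44.8, 36.0 and 31.9 CPM in contralateral, 22.8, 9.73 and 12.3 CPM in c-FosWT DMM and 38.8, 31.8, 89.5 and 143 CPM in c-FosDCh DMM knees. The first 2 c-FosDCh knees lay at or close to the contralateral level and the other 2 far above it. The log2 difference between the operated groups was 2.34 ± 0.53 (edgeR adjusted p = 0.0332), and that of c-FosWT DMM against contralateral was -1.29 ± 0.50 (edgeR adjusted p = 0.208). Egln1, the main hydroxylase of HIF-1alpha in most cells, was at 86.3, 91.3, 95.5 and 59.6 CPM in contralateral, 59.7, 38.3 and 48.6 CPM in c-FosWT DMM and 81.6, 69.3, 122 and 182 CPM in c-FosDCh DMM knees. The operated groups did not overlap, with a log2 difference of 1.22 ± 0.33 between the operated groups (edgeR adjusted p = 0.0397).

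Vhl, which encodes the substrate-binding part of the ligase, was at 28.1, 23.6, 26.5 and 28.2 CPM in contralateral, 23.2, 24.0 and 27.1 CPM in c-FosWT DMM and 33.1, 30.0, 31 and 36.1 CPM in c-FosDCh DMM knees. All 4 c-FosDCh libraries were above all 7 others, and the difference was small, at 0.39 ± 0.11 on the log2 scale between the operated groups (edgeR adjusted p = 0.0431). Egln2, a hydroxylase that hypoxia does not induce, was at 42.7, 49.0, 38.1 and 32.5 CPM in contralateral, 39.4, 51.0 and 60.1 CPM in c-FosWT DMM and 51.6, 50.4, 45.1 and 40.7 CPM in c-FosDCh DMM knees. All 3 groups overlapped, and the 95% confidence interval of the log2 difference between the operated groups ran from -0.48 to 0.28. Hif1an was at 61.8, 70.5, 60.1 and 56.6 CPM in contralateral, 75.2, 67.0 and 64.4 CPM in c-FosWT DMM and 65.3, 66.7, 66.7 and 67.1 CPM in c-FosDCh DMM knees. Its groups overlapped as well, with a log2 difference between the operated groups whose 95% confidence interval ran from -0.27 to 0.16.

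Egln1 and Egln3 can be set against Egln2, which did not pass but was not constant either. Egln2 ran from 32.5 to 60.1 CPM, with the highest value in c-FosWT DMM 3. Its log2 difference of c-FosWT DMM against contralateral was 0.31 ± 0.17 (edgeR adjusted p = 0.331). Low ratios in c-FosWT DMM libraries can thus come in part from Egln2. Per kilobase of exon, Egln3 stood at 0.845, 0.962, 0.994 and 1.03 times Egln2 in the contralateral, at 0.609, 0.201 and 0.215 times in the c-FosWT DMM and at 0.791, 0.664, 2.09 and 3.7 times in the c-FosDCh DMM libraries. The 3 c-FosWT operated knees thus had the lowest ratios of all 11. The ratio of Egln1 to Egln2 was 1.57, 1.45, 1.95 and 1.43 in contralateral, 1.18, 0.585 and 0.63 in c-FosWT DMM and 1.23, 1.07, 2.11 and 3.48 in c-FosDCh DMM libraries, where the operated groups overlapped. No test was made of these ratios.

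**Figure D2:**
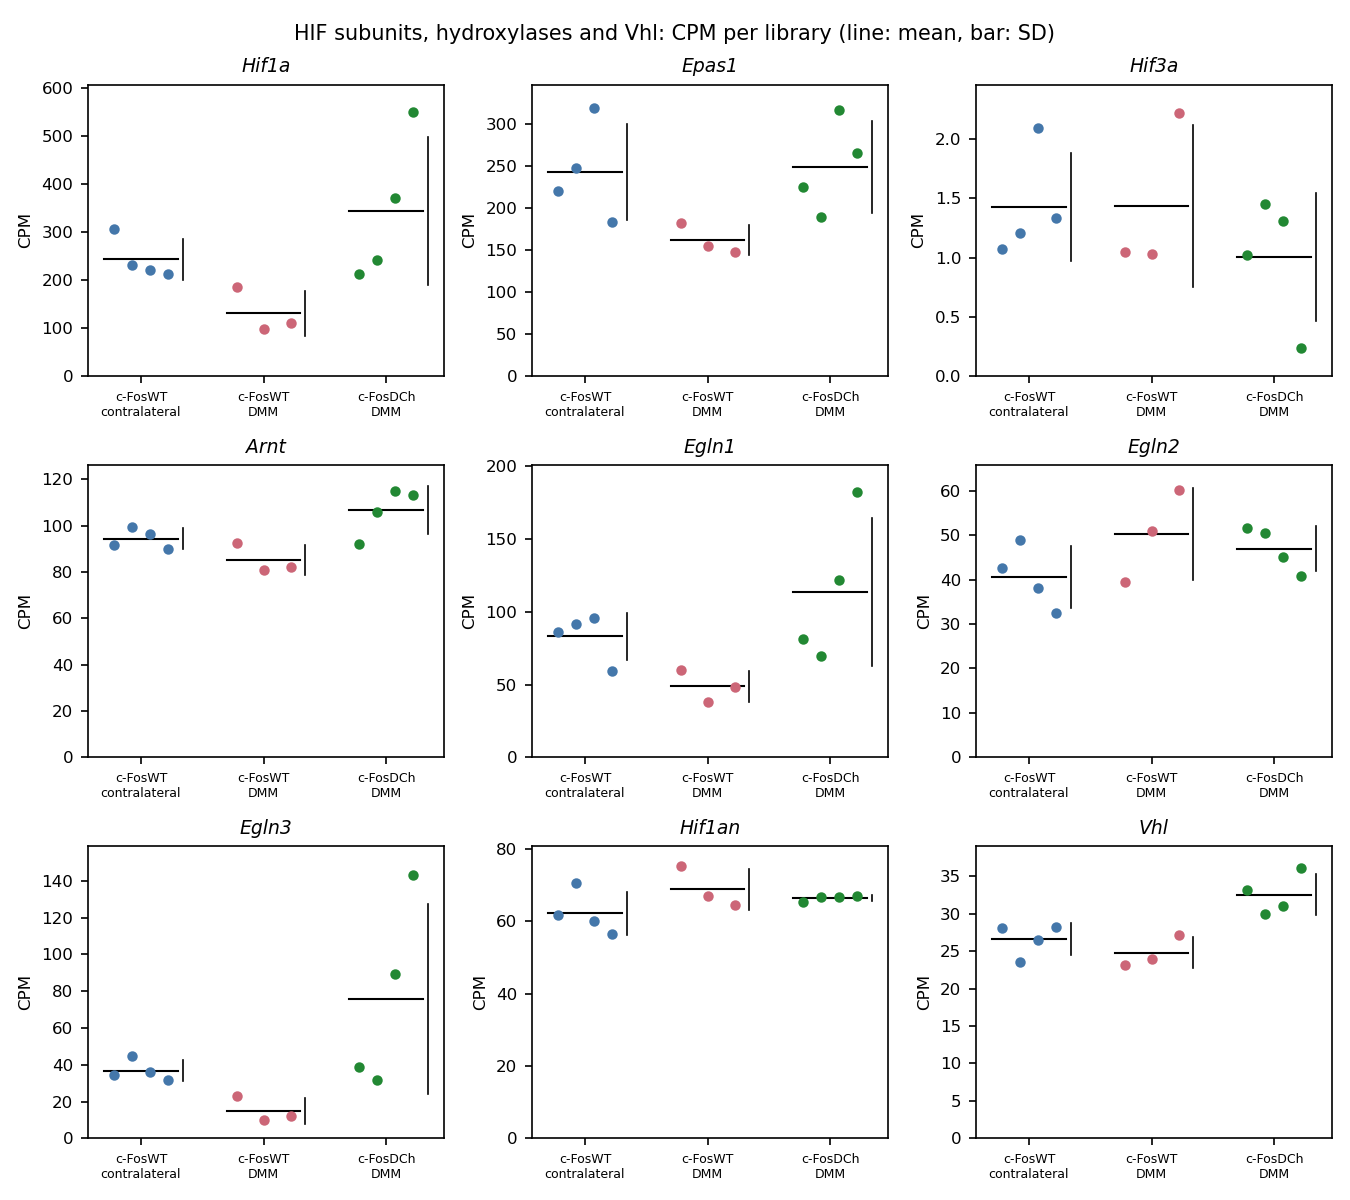
CPM (y axis, from 0) of the 9 regulators in each library, with 4 contralateral, 3 c-FosWT DMM and 4 c-FosDCh DMM points per panel. Horizontal lines are group means and vertical bars are SD. Hif1a, Egln1, Egln3 and Vhl were higher in c-FosDCh DMM than in c-FosWT DMM knees, and the Egln2 and Hif1an points of the groups intermingle.

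HIF binds hypoxia response elements whose core is ACGTG or GCGTG, and these letters were searched on both strands in the 250 bases before the start of each gene (RefSeq, GRCm38.p6, the most upstream window of a gene). Of the 31 genes, 25 had an entry in that table, and 19 of the 25 windows (76.0%) held a core, beside 10442 of 27025 windows of all genes (38.6%). The share was alike in regulators (6 of 8, 75.0%) and targets (13 of 17, 76.5%), so it did not set the targets apart. Both cores contain the letters CG, and the windows were not matched to those of all genes in base composition. Cores stood in 15 of the 18 windows of genes that were higher in c-FosDCh operated knees and in 4 of the 7 windows of the others. ACGTG is also the end of CACGTG, the site of MYC and BHLHE40, which was in 3 of the 25 windows (Bhlhe41, Bnip3 and Hif1a) and in 6.04% of all windows. The windows of Vegfa, Vhl, Errfi1, Hif1an, Mxi1 and Car12 held no core. The windows of 4 genes are shown because they belong to the targets with the smallest p between the operated groups that have an entry. They are those of Ddit4 (chr10:59951771-59952020, reverse strand), Stc2 (chr11:31370062-31370311, reverse strand), Ak4 (chr4:101419039-101419288, forward strand) and Car9 (chr4:43506776-43507025, forward strand), each written 5′ to 3′ on the strand of its gene, with the cores in capitals.
Ddit4: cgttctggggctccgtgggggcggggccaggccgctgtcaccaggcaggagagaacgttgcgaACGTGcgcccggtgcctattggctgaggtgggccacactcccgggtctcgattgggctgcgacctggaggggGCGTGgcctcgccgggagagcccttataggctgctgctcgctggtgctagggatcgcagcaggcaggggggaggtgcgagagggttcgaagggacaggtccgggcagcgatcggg
Stc2: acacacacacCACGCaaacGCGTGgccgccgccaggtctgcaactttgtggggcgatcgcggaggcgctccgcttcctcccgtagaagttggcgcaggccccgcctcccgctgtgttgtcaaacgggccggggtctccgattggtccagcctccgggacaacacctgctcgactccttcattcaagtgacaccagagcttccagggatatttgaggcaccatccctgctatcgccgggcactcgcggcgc
Ak4: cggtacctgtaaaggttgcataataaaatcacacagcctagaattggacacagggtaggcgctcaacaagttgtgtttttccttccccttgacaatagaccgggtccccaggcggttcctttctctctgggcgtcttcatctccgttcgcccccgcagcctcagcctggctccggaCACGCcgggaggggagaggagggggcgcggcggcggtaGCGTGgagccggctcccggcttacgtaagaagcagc
Car9: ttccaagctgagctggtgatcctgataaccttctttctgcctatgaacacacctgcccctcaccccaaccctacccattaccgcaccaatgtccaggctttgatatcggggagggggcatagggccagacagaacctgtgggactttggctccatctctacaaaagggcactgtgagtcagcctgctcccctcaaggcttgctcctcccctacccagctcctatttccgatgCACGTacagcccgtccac
In Ddit4 both cores read forward and began 187 and 115 bases before the start. Stc2 had a core on the opposite strand 240 bases and 1 on its own strand 231 bases before the start, next to each other. The cores of Ak4 were 74 (opposite strand) and 36 bases away, and the single core of Car9 was 18 bases away on the opposite strand. These distances are to the RefSeq starts. The gene spans used elsewhere here (GENCODE M21) begin inside each of the 4 windows. In that annotation Car9 starts at 43506966, so its core lies within the gene rather than before it. A match is a description of the letters and no evidence of binding.

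Of the 5 secreted targets, Vegfa, Adm and Stc2 were higher and Angptl4 was lower in c-FosDCh than in c-FosWT operated knees. Vegfa, the vascular endothelial growth factor (chr17:46016993-46032369, reverse strand), was at 115, 141, 150 and 87.0 CPM in contralateral, 79.8, 51.9 and 65.5 CPM in c-FosWT DMM and 143, 113, 193 and 269 CPM in c-FosDCh DMM knees. The 3 c-FosWT operated knees were below all 8 other libraries, and the log2 difference between the operated groups was 1.45 ± 0.31 (edgeR adjusted p = 0.0332). Stc2, a secreted glycoprotein that inhibits the protease pappalysin, was at 34.3, 36.6, 51.9 and 27.1 CPM in contralateral, 20.7, 9.10 and 19.1 CPM in c-FosWT DMM and 48.3, 44.5, 140 and 74.0 CPM in c-FosDCh DMM knees. Its log2 difference was 2.24 ± 0.46 (edgeR adjusted p = 0.0332), with library 3 rather than 4 highest. Adm, the vasodilator peptide adrenomedullin, was at 7.83, 9.64, 8.11 and 4.36 CPM in contralateral, 3.05, 1.26 and 1.61 CPM in c-FosWT DMM and 3.87, 4.94, 6.19 and 9.53 CPM in c-FosDCh DMM knees. The log2 difference between the operated groups was 1.63 ± 0.41 (edgeR adjusted p = 0.0365). Adm had the lowest unadjusted p of the 31 in c-FosWT DMM against contralateral, at -1.92 ± 0.42 (edgeR adjusted p = 0.182), and it was the 1 gene of the 20 called higher whose c-FosDCh mean did not exceed the contralateral mean (6.13 ± 2.46 against 7.49 ± 2.23 CPM, SD, n = 4 each).

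Angptl4, an inhibitor of lipoprotein lipase that is induced by PPAR receptors as well as by HIF, went the other way. It was at 14.5, 14.1, 17.5 and 10.6 CPM in contralateral, 22, 21.1 and 6.51 CPM in c-FosWT DMM and 5.84, 7.56, 2.31 and 3.57 CPM in c-FosDCh DMM knees. The log2 difference between the operated groups was -1.77 ± 0.46 (edgeR adjusted p = 0.0377), although c-FosWT DMM 3 lay within the c-FosDCh range. Adipocyte markers were lowest in c-FosDCh 3 and 4, with a summed level from 5.32 to 164 CPM in c-FosDCh against 145 to 295 CPM in c-FosWT DMM and 126 to 241 CPM in contralateral libraries, 0 of 8 passed and none was at 0 in every library; their part in the Angptl4 difference was not tested. Without c-FosDCh 3 and 4 the Angptl4 difference was -1.31. Stc1, the relative of Stc2, was at 2.38, 1.93, 7.46 and 3.78 CPM in contralateral, 2.23, 2.46 and 1.89 CPM in c-FosWT DMM and 1.68, 1.57, 1.25 and 2.14 CPM in c-FosDCh DMM knees, with overlapping operated groups (-0.40 ± 0.43, edgeR adjusted p = 0.487). Per kilobase, Stc2 was 3.0 to 8.2 times Stc1 in the c-FosWT operated libraries and 23.0 to 90.8 times in the c-FosDCh libraries, beside 5.64 to 15.4 times in the contralateral libraries.

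Of the 8 nuclear and signalling targets, 6 were higher. Bhlhe40 had the smallest p of the 31 between the operated groups. It and Bhlhe41 encode transcriptional repressors that also act in the circadian clock. Bhlhe40 was at 118, 143, 133 and 102 CPM in contralateral, 89.5, 47.1 and 67.9 CPM in c-FosWT DMM and 138, 129, 151 and 161 CPM in c-FosDCh DMM knees, a log2 difference of 1.08 ± 0.20 between the operated groups (edgeR adjusted p = 0.0332). Unlike Egln3, it was nearly level across the 4 c-FosDCh libraries. Bhlhe41 was at 151, 134, 175 and 102 CPM in contralateral, 70.8, 24.3 and 60.0 CPM in c-FosWT DMM and 113, 108, 199 and 154 CPM in c-FosDCh DMM knees, a difference of 1.47 ± 0.36 (edgeR adjusted p = 0.0356). For both genes the c-FosWT operated knees stood alone at the bottom, and the c-FosDCh and contralateral ranges overlapped.

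Ddit4, an inhibitor of mTORC1, was at 36.6, 32.3, 39.0 and 36.3 CPM in contralateral, 25.6, 21.1 and 35.9 CPM in c-FosWT DMM and 55.9, 54.8, 131 and 76.8 CPM in c-FosDCh DMM knees. All 4 c-FosDCh libraries were above all 7 others, and the log2 difference between the operated groups was 1.53 ± 0.31 (edgeR adjusted p = 0.0332). Errfi1, a feedback inhibitor of the EGF receptor, was at 68.2, 108, 97.3 and 56.9 CPM in contralateral, 48.2, 38.8 and 41.0 CPM in c-FosWT DMM and 116, 72.6, 165 and 357 CPM in c-FosDCh DMM knees. Its log2 difference was 2.06 ± 0.48 (edgeR adjusted p = 0.0337), and the library of c-FosDCh 4 was far above the others. Ankrd37, an ankyrin repeat protein, was at 4.20, 5.93, 5.49 and 2.98 CPM in contralateral, 3.05, 1.03 and 1.00 CPM in c-FosWT DMM and 7.45, 3.84, 7.38 and 10.1 CPM in c-FosDCh DMM knees, from 18 to 127 reads per library. The difference was 2.08 ± 0.47 (edgeR adjusted p = 0.0332). Ndrg1, a stress-responsive growth regulator, was at 158, 170, 244 and 121 CPM in contralateral, 102, 86.6 and 120 CPM in c-FosWT DMM and 178, 158, 196 and 236 CPM in c-FosDCh DMM knees. It had a log2 difference of 0.90 ± 0.23 (edgeR adjusted p = 0.0373).

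The other 2 nuclear targets did not pass between the operated groups. Kdm3a, a histone demethylase, was at 72.3, 66.1 and 66.3 CPM in c-FosWT DMM and 78.3, 86.0, 127 and 172 CPM in c-FosDCh DMM knees, without overlap (0.76 ± 0.24, edgeR adjusted p = 0.0562). Mxi1, an antagonist of MYC, was at 64.2, 64.6 and 73.3 CPM against 67.9, 54.1, 60.8 and 76.0 CPM, with overlap. The 95% confidence interval of the Mxi1 log2 difference ran from -0.36 to 0.25.

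The mitochondrial targets had the highest median of the target groups, 1.97, and 5 of the 6 were higher in c-FosDCh than in c-FosWT operated knees. Ak4, a mitochondrial adenylate kinase (chr4:101419277-101466995, forward strand), was at 44.4, 40.8, 51.0 and 24.9 CPM in contralateral, 19.8, 7.10 and 16.6 CPM in c-FosWT DMM and 50.6, 41.6, 113 and 162 CPM in c-FosDCh DMM knees. The log2 difference between the operated groups was 2.66 ± 0.54 (edgeR adjusted p = 0.0332), with c-FosDCh 1 and 2 inside the contralateral range and 3 and 4 far above it. Mgarp, a mitochondrial protein, was at 2.82, 2.64, 4.47 and 2.08 CPM in contralateral, 0.878, 0.229 and 0.501 CPM in c-FosWT DMM and 2.04, 1.63, 8.38 and 8.5 CPM in c-FosDCh DMM knees. Its fold change was the largest of the 31, at 3.24 ± 0.73 on the log2 scale (edgeR adjusted p = 0.0332), and rests on 4 to 134 reads per library. Bnip3, a receptor for mitophagy, was at 58.0, 58.0, 69.3 and 37.3 CPM in contralateral, 30.9, 12.8 and 19.1 CPM in c-FosWT DMM and 51.3, 47.8, 105 and 163 CPM in c-FosDCh DMM knees. That was a difference of 2.13 ± 0.48 between the operated groups (edgeR adjusted p = 0.0332).

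Higd1a, which acts on the respiratory chain, was at 22.2, 20.8, 22.5 and 16.4 CPM in contralateral, 13.4, 6.87 and 8.18 CPM in c-FosWT DMM and 19.1, 15.0, 37.0 and 58.6 CPM in c-FosDCh DMM knees (1.77 ± 0.45, edgeR adjusted p = 0.0366). Fam162a, a mitochondrial protein, was at 49.4, 33.1, 44.8 and 28.6 CPM in contralateral, 23.3, 14.7 and 18.8 CPM in c-FosWT DMM and 43.2, 33.4, 72.4 and 115 CPM in c-FosDCh DMM knees (1.80 ± 0.41, edgeR adjusted p = 0.0332). Both kept the order in which the c-FosWT operated knees were lowest without overlap. The mitophagy receptor Bnip3l, the close relative of Bnip3, did not share it. Bnip3l was at 79.0, 72.0, 84.3 and 113 CPM in contralateral, 102, 107 and 113 CPM in c-FosWT DMM and 76.6, 91.6, 92.8 and 102 CPM in c-FosDCh DMM knees, a log2 difference of -0.24 ± 0.15 between the operated groups (edgeR adjusted p = 0.248). Bnip3l also has a role in the clearance of mitochondria from maturing red cells. Erythroid markers were at higher levels in the c-FosWT operated libraries, with 6 of 15 passing as lower in c-FosDCh, beside 3.79% of all genes. The part of these markers in the Bnip3l values was not tested. Per kilobase, Bnip3 was 1.25, 1.37, 1.4 and 0.562 times Bnip3l in contralateral, 0.516, 0.204 and 0.288 times in c-FosWT DMM and 1.14, 0.889, 1.93 and 2.72 times in c-FosDCh DMM libraries.

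Of the 3 membrane targets, Car9 and Tmem45a were higher. Car9, the carbonic anhydrase that exports acid from hypoxic cells, was at 4.51, 4.86, 4.29 and 5.16 CPM in contralateral, 2.34, 1.77 and 1.84 CPM in c-FosWT DMM and 4.53, 3.78, 4.82 and 9.69 CPM in c-FosDCh DMM knees. The contralateral values were tight, the c-FosWT operated values were all below them, and the log2 difference between the operated groups was 1.52 ± 0.32 (edgeR adjusted p = 0.0332). Tmem45a, a transmembrane protein, was at 46.5, 37.5, 42.4 and 24.4 CPM in contralateral, 21.8, 7.16 and 11 CPM in c-FosWT DMM and 26.9, 26.0, 63.7 and 111 CPM in c-FosDCh DMM knees (2.10 ± 0.57, edgeR adjusted p = 0.0415). Car12, a second membrane carbonic anhydrase, spread widely. It was at 4.20, 7.14, 2.86 and 27.1 CPM in contralateral, 15.8, 12 and 5.56 CPM in c-FosWT DMM and 1.31, 8.49, 0.938 and 1.91 CPM in c-FosDCh DMM knees, a difference of -1.79 ± 0.90 (edgeR adjusted p = 0.161). The libraries of c-FosDCh 1, 3 and 4 were below all others, and that of c-FosDCh 2 was not. With 1 library left out the Car12 difference ran from -3.01 to -1.49, and it passed as lower in 1 of 11 such fits.

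**Figure D3:**
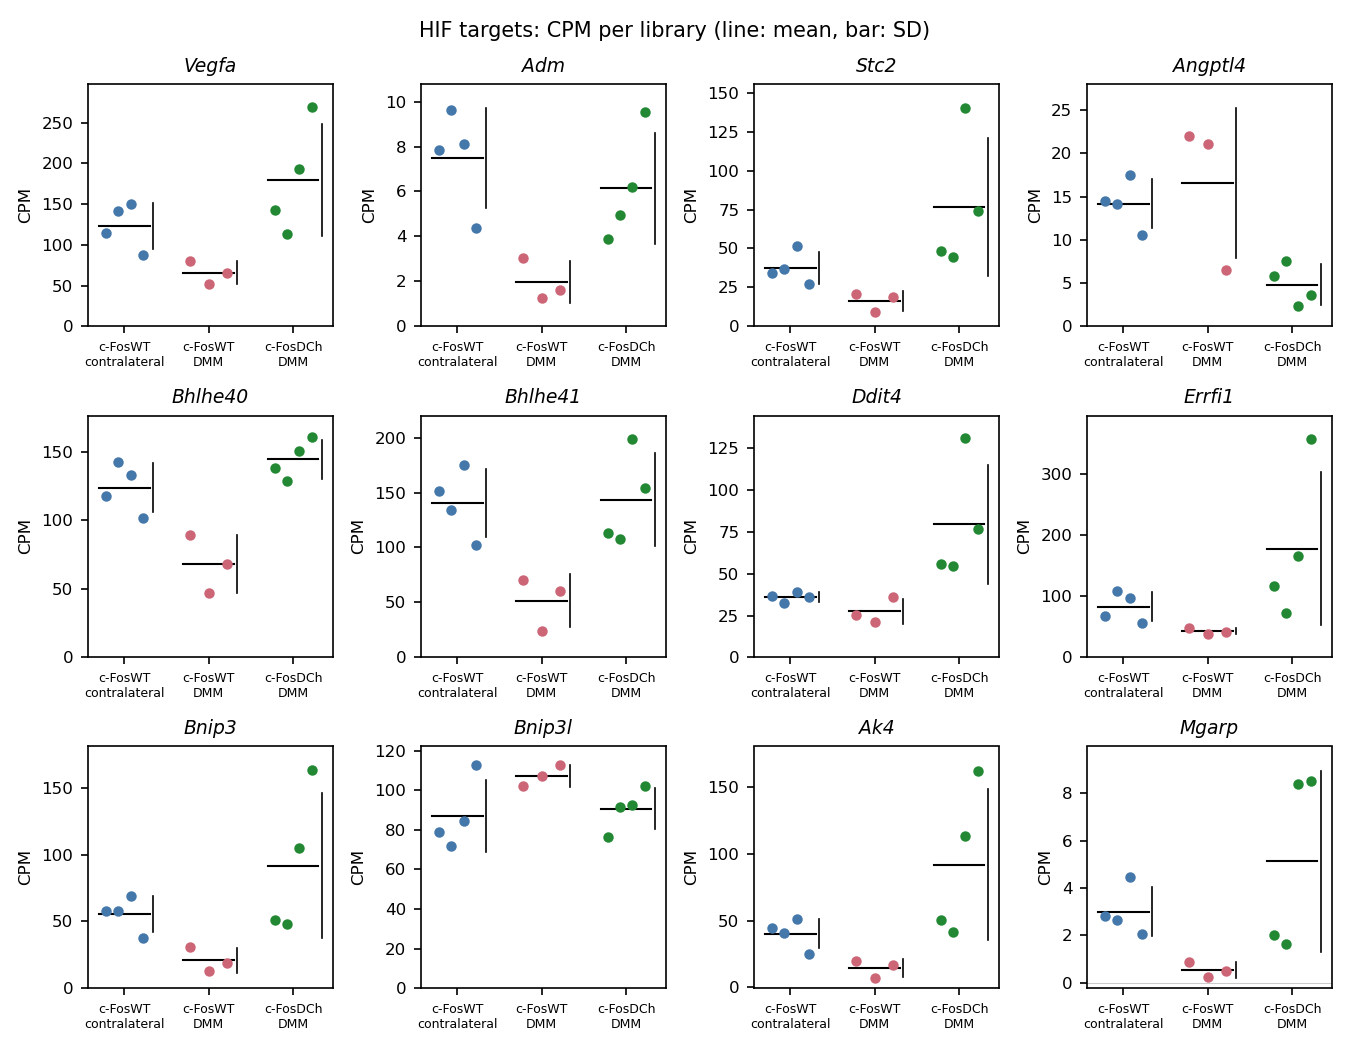
CPM (y axis, starting at or just below 0) of 12 targets in each library of the 3 groups, with group means (lines) and SD (bars). In 10 of the panels the c-FosDCh DMM knees were higher than the c-FosWT DMM knees. Angptl4 was lower, and Bnip3l did not pass the test.

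The c-FosWT knees can also be compared within animals. In 21 of the 31 genes the operated knee was lower in 3 of 3 animals, beside 24.4% of all genes, and in 2 (Mxi1 and Bnip3l) it was higher in 3 of 3, beside 21.8% of all genes. The operated minus contralateral difference of Hif1a was -0.73, -1.24 and -0.95 on the log2 CPM scale in the 3 animals. That of Egln3 was -0.58, -2.19 and -1.36, that of Ak4 -1.16, -2.50 and -0.58, and that of Mgarp -1.55, -2.97 and -1.82. The second animal had the largest difference in each of these 4 genes. Bnip3l differed by 0.37, 0.57 and 0.01, and Car12 by 1.88, 0.74 and -2.26, which was the widest disagreement between animals in the list. When each animal was a block of its own in a fit to the 3 pairs, 0 of the 31 passed (edgeR, lowest adjusted p = 0.202). Over all genes 0% passed in that fit, and the median log2 fold change of the 31 was -0.78.

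Within the c-FosDCh group the 4 libraries differed in their position against the contralateral range. In c-FosDCh DMM 1 and 2, 19 and 21 of the 31 genes lay within the contralateral range, with 5 and 4 above it and 7 and 6 below, which is close to the shares of all genes (59.2% and 66.1% within, 20.2% and 16.6% above, 20.6% and 17.3% below). In c-FosDCh DMM 3 and 4, 19 and 20 of the 31 lay above it (61.3% and 64.5%, beside 32.7% and 35.0% of all genes), and 3 lay below it in each. In the c-FosWT operated knees 20, 23 and 23 of the 31 lay below it (64.5%, 74.2% and 74.2%, beside 23.1%, 35.4% and 35.4% of all genes).

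**Figure D4:**
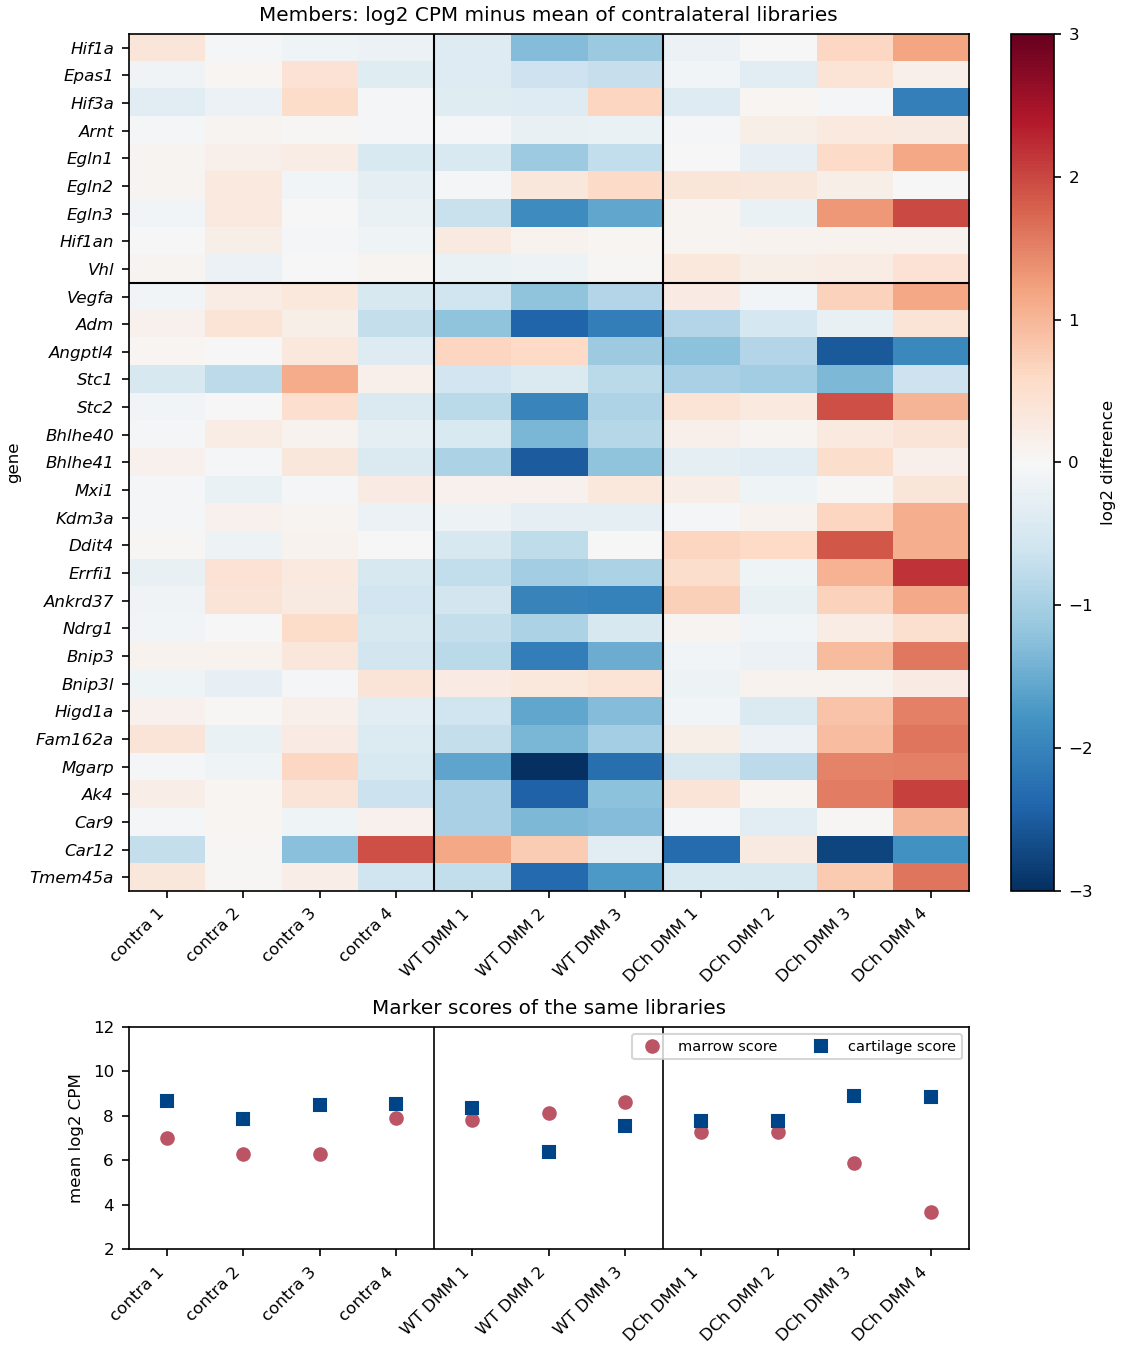
Top, log2 CPM of the 31 genes (rows) in the 11 libraries (columns) minus the mean of the 4 contralateral libraries, from blue (lower) to red (higher). Bottom, marrow and cartilage marker scores (mean log2 CPM) of the same libraries. The 3 c-FosWT DMM columns are mostly blue and c-FosDCh DMM 3 and 4 mostly red, and the lowest marrow scores, 5.88 and 3.66, are those of c-FosDCh DMM 3 and 4.

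Marker levels of several cell types differed between the libraries. The marrow scores of the operated groups did not overlap, with every c-FosWT DMM library above every c-FosDCh DMM library. The contralateral marrow scores overlapped both. The cartilage scores of the 3 groups overlapped, but the summed cartilage levels of c-FosWT DMM libraries were below those of both other groups. Averaged as log2 CPM, 31 genes of red cell precursors and granulocytes gave a marrow score of 7.0, 6.27, 6.28 and 7.90 in contralateral, 7.82, 8.13 and 8.60 in c-FosWT DMM and 7.28, 7.28, 5.88 and 3.66 in c-FosDCh DMM libraries, and none of these genes was at 0 in any library. Their summed level ranged from 6780 to 18800 CPM, from 17200 to 29500 CPM and from 1010 to 16100 CPM in the 3 groups in that order. The cartilage score over 18 chondrocyte genes was 8.66, 7.87, 8.47 and 8.52 in contralateral, 8.33, 6.39 and 7.55 in c-FosWT DMM and 7.78, 7.77, 8.90 and 8.84 in c-FosDCh DMM libraries, with summed levels from 22800 to 44000 CPM, from 6850 to 18800 CPM and from 23800 to 89100 CPM. Between the operated groups 7 of the 18 chondrocyte genes passed as higher in c-FosDCh and 0 as lower, beside 10.6% and 3.79% of all genes. Their fold changes were positive for 14 (median of the 18, 1.26) and negative for 4, down to -5.04. Without overlap 8 of the 18 were higher and 1 was lower, beside 17.2% and 15.8% of all genes. In addition 1 of 11 osteoblast genes (Alpl, 9.09%) was higher, close to the 10.6% of all genes. Of the 11 endothelial genes 1 (Robo4, 9.09%) was lower, beside 3.79% of all genes. None of the granulocyte, muscle, macrophage, adipocyte or fibroblast genes passed. All 11 endothelial genes nonetheless had negative fold changes (median -1.04), 8 of them without overlap, beside 15.8% of all genes. Fold changes were also negative for all 9 macrophage genes (median -1.01, 6 without overlap) and all 8 adipocyte genes (median -1.31, 3 without overlap). So were those of all 16 granulocyte genes (median -1.04, 1 without overlap) and all 14 muscle genes (median -2.72, 0 without overlap). The endothelial score was 3.26 to 5.12 in the c-FosDCh libraries, below all 7 others (5.15 to 5.68). Of 15 erythroid genes 6 passed as lower in c-FosDCh, and all 15 were lower without overlap (median -2.18), beside 3.79% and 15.8% of all genes. In c-FosWT operated against contralateral knees all 15 were higher without overlap (median 1.64), beside 10.1% of all genes, and 0 passed. They were higher in 3 of 3 animals, beside 21.8% of all genes. The part of these cell types in the hypoxia gene differences was not tested beyond the fits below. Muscle markers were highest in c-FosWT DMM 1 and contralateral 2.

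With a score added to the fit, or without c-FosDCh 3 and 4, none of the 31 genes passed between the operated groups. Over all genes, too, 0% passed in each of these fits. The median log2 fold change of the 31 was 0.63 with the marrow score (edgeR lowest adjusted p = 0.367), 0.87 with the cartilage score (0.189) and 0.84 without c-FosDCh 3 and 4 (0.163), against 1.39 with the group alone. With the muscle score the calls were lost as well (lowest adjusted p = 0.0563), but the median stayed at 1.42. The sign of all 21 called genes was kept in these fits. The sizes moved unequally. Kdm3a, which had not passed, went from 0.76 to 0.10 with the marrow score, Errfi1 from 2.06 to 0.69 and Egln1 from 1.22 to 0.35. Ddit4 went from 1.53 to 1.32, Bhlhe40 from 1.08 to 0.83, Angptl4 from -1.77 to -1.59 and Vhl from 0.39 to 0.36. Without c-FosDCh 3 and 4, Ak4 went from 2.66 to 1.66, Hif1a from 1.39 to 0.79 and Bhlhe40 from 1.08 to 0.96. In c-FosWT operated against contralateral knees the median of the 31 was -0.51 with the marrow score and -0.49 with the cartilage score, against -0.86 with the group alone.

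**Figure D5:**
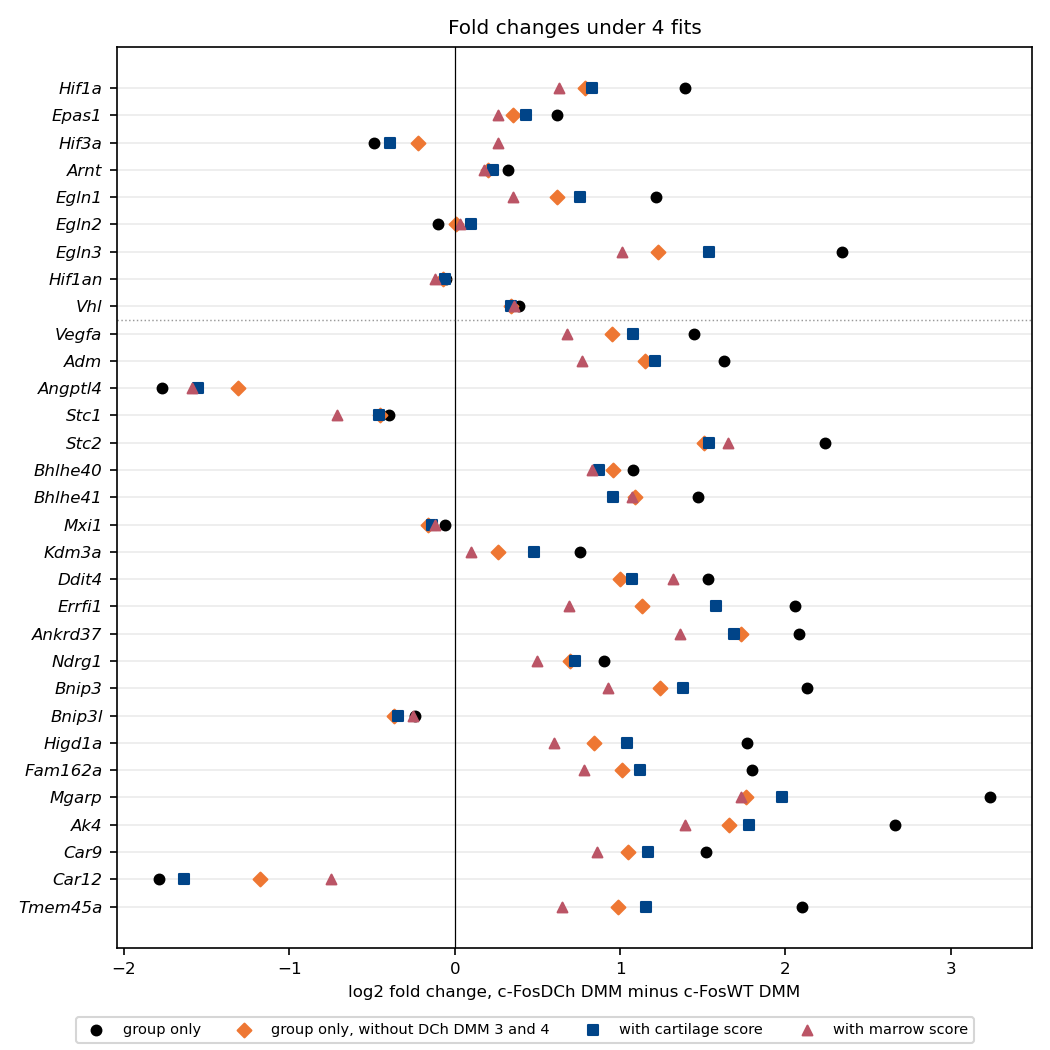
Log2 fold change of c-FosDCh DMM against c-FosWT DMM (x axis) for each of the 31 genes under 4 fits: the group alone, the group without c-FosDCh DMM 3 and 4, and the group with the cartilage or the marrow score as a covariate. Most points of the 20 higher genes move towards 0, for example Ak4 from 2.66 to 1.39 with the marrow score, and stay to the right of it.

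Against the contralateral knees, the c-FosDCh operated knees had values with an unadjusted p under 0.05 in 9 genes, none of which passed (edgeR adjusted p = 0.584 for each). Ddit4 had the smallest p, with a log2 difference of 1.14 ± 0.28. The others with positive differences were Ak4 (1.19 ± 0.46), Errfi1 (1.10 ± 0.42), Stc2 (1.04 ± 0.39), Egln3 (1.04 ± 0.45), Kdm3a (0.52 ± 0.22) and Vhl (0.29 ± 0.10). Angptl4 (-1.55 ± 0.43) and Stc1 (-1.23 ± 0.40) were the 2 with negative differences. Only Ddit4 and Vhl lay above, and only Angptl4 lay below, all contralateral libraries, beside 2.28% and 2.12% of all genes. Without c-FosDCh 3 and 4 the median of the 31 genes was -0.03 in place of 0.29, and Egln3 was at -0.04.

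On the scale of level per kilobase of exon, the genes with the highest mean in contralateral cartilage were Fam162a (45.8 ± 11.5 CPM per kilobase, SD, n = 4), Epas1 (43.3 ± 10.2) and Hif1a (41.2 ± 7.38), which did not differ beyond their spread, followed by Vegfa (28.8 ± 6.63). In c-FosWT operated cartilage Epas1 (28.9 ± 3.17, n = 3) and Bnip3l (27.8 ± 1.42) came first, within their spread of each other. In c-FosDCh operated cartilage the first were Fam162a (77.7 ± 43.2, n = 4) and Hif1a (58.2 ± 26.0), again within their spread. Hif3a was last in each group, at 0.212, 0.214 and 0.15 CPM per kilobase.

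Other pathway genes were counted from 3 further lists, to be read beside the 10.6% higher and 3.79% lower over all genes. Of 22 genes for glucose use, 6 (27.3%) were higher and none lower in c-FosDCh than in c-FosWT operated knees, with a median log2 fold change of 0.76. The glucose transporter gene Slc2a1 was at 194 ± 137 CPM in c-FosDCh (SD, n = 4) against 35.8 ± 12.1 CPM in c-FosWT operated knees (SD, n = 3), a log2 difference of 2.44 ± 0.53 (edgeR adjusted p = 0.0332), and at 90.2 ± 21.2 CPM in contralateral knees. The enolase genes Eno2 (1.23 ± 0.18, edgeR adjusted p = 0.0332) and Eno1 (1.05 ± 0.25, edgeR adjusted p = 0.0344) passed as well. Of 17 tested genes for matrix and vessels, 6 were higher and 1 lower (41.2% in all), with a median of -0.53, so that the list had no common direction. The collagen prolyl hydroxylase gene P4ha2 was higher by 2.46 ± 0.53 and the lysyl hydroxylase gene Plod1 by 0.83 ± 0.16 on the log2 scale (edgeR adjusted p = 0.0332 each). The 1 lower gene was Tfrc, the transferrin receptor gene that maturing red cells also express, at -1.46 ± 0.42 (edgeR adjusted p = 0.0458). Of 18 further regulators and partners, 2 (11.1%, close to the share of all genes) were higher, the ubiquitin ligase gene Siah2 (1.00 ± 0.27, edgeR adjusted p = 0.0392) and the ARNT relative Arnt2 (0.85 ± 0.23, edgeR adjusted p = 0.0412), with a median of -0.05. In c-FosWT operated against contralateral knees the medians of the 3 lists were -0.37, -0.14 and 0.04, with 0 calls.

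Exons of 12 of the 31 genes, 9 of them among the 21 called, overlap a gene on the other strand by 11 to 1280 bases, the most in Bhlhe41. The libraries were made with a directional kit, but which strand was counted is not given in the sources used here, so reads of these genes and their partners may not have been told apart.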

How the data were processed

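RNA of 11 cartilage libraries was sequenced as 75-base single reads from a directional poly(A) kit, per the labels' protocols. The authors deposited raw read counts per gene, 1 file per library. The build GRCm38 and the tools STAR 2.6.1a, DESeq2 1.22.2, RSEM (no role given) and bcl2fastq 2.19.1.403 are named, per the submitters' processing notes. Which annotation release was counted is not given in the sources used here. Rows for unassigned reads were left out of library sizes (33.08% to 43.16% of reads were assigned to a gene).

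Gene IDs were matched to GENCODE M21 (55240 of 55421). Counts were tested with edgeR 4.0.16 in R 4.3.3 (filterByExpr, TMM, 1 fit to 11 libraries, quasi-likelihood test, threshold 0.05). SE came from dividing the fold change (log2) by the root of the F statistic. Log2 CPM used a prior count of 2. Alternatives were DESeq2 1.42.0, limma 3.58.1 (voom), other scaling, no filter, fewer libraries, covariates and blocks. The test script was tested on simulated data.

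The 31 genes and all lists were chosen with earlier results of these data known. Regulators and targets passing a test are given with every library, others by values or counts. From the other lists up to 3 genes of smallest p are named. Tfrc, Robo4 and Alpl are named as the single call of their direction or list, after their values were seen. No 2 replicates agreed within sampling noise. Replicate numbers of c-FosDCh follow accession order, since the source names repeat a number. Both knees of an animal are paired by the labels, and the correlations of their deviations from group means over 2000 genes were -0.25, -0.22 and 0.39.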

Additional observations from a re-analysis of the deposited data

How the results depend on the processing

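Counts of called hypoxia genes between the operated groups ran from 0 to 24 over the alternatives. The fit described above gave 21 calls, beside 14.4% of all genes. DESeq2 gave 24 (29.6% of all genes), limma-voom 21 (19.3%) and upper quartile scaling 22 (15.7%). Library totals alone gave 20 (11.9%, with the median of all genes at -0.18 in place of -0.01). The count was 13 (4.27%) with no filter on low counts and 0 (0%) with the 2 groups alone. Leaving out 1 library gave 0 to 24 calls, beside 0% to 25.8% of all genes. It gave 0 without contralateral 1 or 2, c-FosWT DMM 2 or 3, or c-FosDCh DMM 3 or 4. In those fits 0% of all genes passed, or 0.00556% without contralateral 2. The count was 14 (7.56% of all genes) without contralateral 3 and 16 (11.5%) without c-FosWT DMM 1. The count was 0, and the median log2 fold change smaller than 1.39, with the marrow (0.63) or cartilage (0.87) score and without c-FosDCh DMM 3 and 4 together (0.84). The count was also 0 at a median near 1.39 with the muscle score (1.42) and with the 2 groups alone (1.40). The same held without the muscle-rich libraries c-FosWT DMM 1 and contralateral 2 together (1.44) and without contralateral 1 or 2 (1.38 each). In all these fits with a count of 0, no more than 0.00556% of all genes passed. With the animal as a replicate block (limma, estimated correlation 0.001) the count was 21, beside 19.3% of all genes. With the source name number as a fixed replicate block it was 0 (median 1.35), beside 0% of all genes. That number joins different animals of the 2 genotypes, and the labels give it no further meaning. The cause was not tested beyond the fewer samples or added terms of these fits. All 21 calls kept their sign under each alternative. In c-FosWT DMM against contralateral knees DESeq2 gave 7 calls, all lower, beside 3.57% of genes called lower. Every other setting gave 0 calls and 0% of all genes, the replicate block over 3 animals included. In c-FosDCh DMM against contralateral knees every setting gave 0, beside at most 0.227% of all genes (DESeq2), the animal as a replicate block included. The median of the 31 was 0.12 with library totals in place of 0.29. Over all 31 genes, the sign of the fold change turned under at least 1 alternative for 4 genes between the operated groups, none of them called, for 5 in c-FosWT DMM against contralateral knees and for 15 in c-FosDCh DMM against contralateral knees. Among the values printed, Egln2 (-0.10 between the operated groups) was 0.03 with the marrow score, 0.10 with the cartilage score, 0.01 without c-FosDCh 3 and 4, and -0.28 to 0.04 with 1 library left out. Hif1an (-0.05) was 0.00 with upper quartile scaling and 0.01 with the muscle score. Hif3a (-0.49) was 0.26 with the marrow score. Mxi1 (-0.06) was -0.15 to 0.02 with 1 library left out. Egln3 against contralateral knees (1.04) was -0.04 without c-FosDCh 3 and 4. Depth limits Hif3a and Mgarp most, with at least 3 and 4 reads in their lowest library.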
